A study of Mus musculus with 6 samples.

Results

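The heat shock chaperones examined here were 10 genes chosen by family, Hspa1a, Hspa1b, Hspa8, Hspb1, Cryab, Hsph1, Dnajb1, Hsp90aa1, Hspd1 and Hspe1, measured in the mouse cochlea with and without Fabp7, the brain-type fatty acid binding protein. A probe counted when the platform's annotation gave it 1 of these symbols and its raw signal exceeded the 40th percentile of the array on at least 3 of the 6 arrays. The annotation held 15 probes for 9 of the 10 genes, and 14 of those probes passed, so that 9 chaperones stood among 16143 named genes and 27189 features in all. Hspa1b had no annotated probe and was not measured here. The third Hspe1 probe did not pass on any array, with raw signals of 2.75 to 6.40.

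Total RNA came from female mice aged 7 months, with 3 samples labelled Fabp7 (+/+) and 3 labelled Fabp7 (-/-). Each sample pooled 4 cochleae of 2 mice, otic capsule included and vestibular tissue left out, and was hybridised with Cy3 to a 1-colour Agilent array. Each group therefore rested on 12 cochleae of 6 mice, and p-values measure the spread between 3 pools a group. The labels give neither how the Fabp7 allele was made nor the strain. Levels below are raw signals on a linear scale or scaled log2 signals, which are the log2 raw signal minus that of the 75th percentile of the same array, and every change is knockout minus wild type on the log2 scale with the standard error (SE) of the fit.

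Heat shock proteins are chaperones that keep other proteins folded. HSP70 proteins bind exposed stretches of a chain and release them in a cycle driven by ATP, with J-domain (HSP40) partners that deliver the chain and HSP110 proteins that exchange the nucleotide. HSP90 matures kinases and steroid receptors, and small heat shock proteins hold unfolding chains in solution. The mitochondrial chaperonin of Hspd1 and Hspe1 folds imported proteins in a closed chamber. Some members are made in every cell, whereas others are induced by the transcription factor HSF1 when proteins unfold. In the inner ear, induction of HSP70 is known to protect hair cells from ototoxic drugs.

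HSF1 binds heat shock elements, inverted repeats of the letters GAA. The promoters of Hspa1a and Hspa1b are shown because these genes are hard to tell apart, and that of Hspb1 because it had the lowest unadjusted p among the members. Each is 150 bases upstream of the start in RefSeq (GRCm38.p6), on the strand of the gene, with alternating units of the letters GAA and TTC in capitals where a pair of them is spaced as GAANNTTC or TTCNNGAA. Hspa1a lies at chr17:34972157-34972306 (minus strand), Hspa1b at chr17:34959239-34959388 (minus strand), Hspb1 at chr5:135887769-135887918 (plus strand).
Hspa1a: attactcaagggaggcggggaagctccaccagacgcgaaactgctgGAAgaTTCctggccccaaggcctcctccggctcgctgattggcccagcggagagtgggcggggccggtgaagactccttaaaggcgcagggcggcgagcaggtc
Hspa1b: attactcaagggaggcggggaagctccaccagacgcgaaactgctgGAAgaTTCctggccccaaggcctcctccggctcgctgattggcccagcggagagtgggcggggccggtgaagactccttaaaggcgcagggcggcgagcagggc
Hspb1: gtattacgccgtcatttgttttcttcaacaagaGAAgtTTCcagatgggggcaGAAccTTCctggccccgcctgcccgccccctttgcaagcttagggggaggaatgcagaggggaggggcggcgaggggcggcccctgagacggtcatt

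The Hspa1a and Hspa1b promoters were identical at 149 of the 150 bases shown and at 247 of the 250 upstream bases of the RefSeq windows. These genes encode nearly the same inducible HSP70. With the probe sequences not at hand, whether the probe annotated to Hspa1a also binds Hspa1b transcripts was not tested, and its signal is given under the annotated name only.

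Hspd1 and Hspe1, which encode the barrel and the lid of the mitochondrial chaperonin, lie head to head on chromosome 1 and share 1 stretch of 4 alternating units at chr1:55088059-55088076. It is shown because both genes read the same letters, from opposite strands. It begins 89 bases before the Hspe1 start and 144 bases before the nearer Hspd1 start of the annotation.
Hspe1: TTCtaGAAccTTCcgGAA
Hspd1: TTCcgGAAggTTCtaGAA

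Of the 10 genes, 7 had a promoter window in the table, of 250 bases before the start to 50 bases after it, and the search covered the 250 upstream bases. At least 1 pair of units, read as GAANNTTC or TTCNNGAA (each its own reverse complement, so both strands are covered, and the spellings can overlap), was present for 6 of these 7, Hspa1a, Hspa1b, Hspb1, Hspd1, Hspe1 and Hsph1. Over all 27025 genes with a window, 14.5% held such a pair. Runs of 3 units (GAANNTTCNNGAA or TTCNNGAANNTTC) were present for Hspd1 and Hspe1 and for 0.514% of all genes with a window. The Dnajb1 windows held none of these letters. A match is a description of the letters and not a measured binding site.

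The labels were checked with Fabp7 itself, which gave raw signals of 2674, 1554 and 1860 in the wild-type pools and 10.9, 3.75 and 3.43 in the knockout pools. The 75th percentile of the raw signal was 665 to 677 on the wild-type arrays and 581 to 621 on the knockout arrays, so that raw signals of the groups are not comparable before scaling. Pairs of arrays correlated at 0.988 to 0.994 over the features. Of 14 cochlear epithelial and lateral wall markers, 13 passed the filter (Kcne1 had no passing probe). Their mean centred signal was 0.11, −0.41 and 0.06 in the wild-type pools and 0.10, −0.03 and 0.17 in the knockout pools, with the low value on wild-type array 2. Their summed raw signal was 411516 to 454686 in the wild-type pools and 375011 to 428887 in the knockout pools. Of the 13 markers, 10 had a change above 0 and 3 below, with a median of 0.11. By limma, 3 had an unadjusted p under 0.05 (beside 5.7% of features) and 0 an adjusted p under 0.05. The scaled groups did not overlap for 5, beside 12.4% of features. The knockout minus wild-type difference in mean centred signal was 0.16, and −0.003 without wild-type array 2. Because whole cochleae were pooled, fewer cells of a type and less RNA per cell cannot be told apart.

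None of the 9 chaperones passed the threshold between knockout and wild type. The lowest limma adjusted p among them, from the adjustment over all features, was 0.866, and 0 of 9 were called against 0% of the 27189 features. At an unadjusted p under 0.05 there were likewise 0 of the 9, against 5.7% of features. Estimated changes were above 0 for 7 chaperones and below 0 for Hspa1a and Cryab, and they ran from −0.13 to 0.18, or 0.911-fold to 1.13-fold. The median change was 0.11, beside 0.03 over all features and 0.05 over the 4054 features with a mean scaled log2 signal above 3, a level that 8 of the 9 exceeded. A change above 0 was found in 60.7% of all features and in 75.3% of those 4054.

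**Figure D1:**
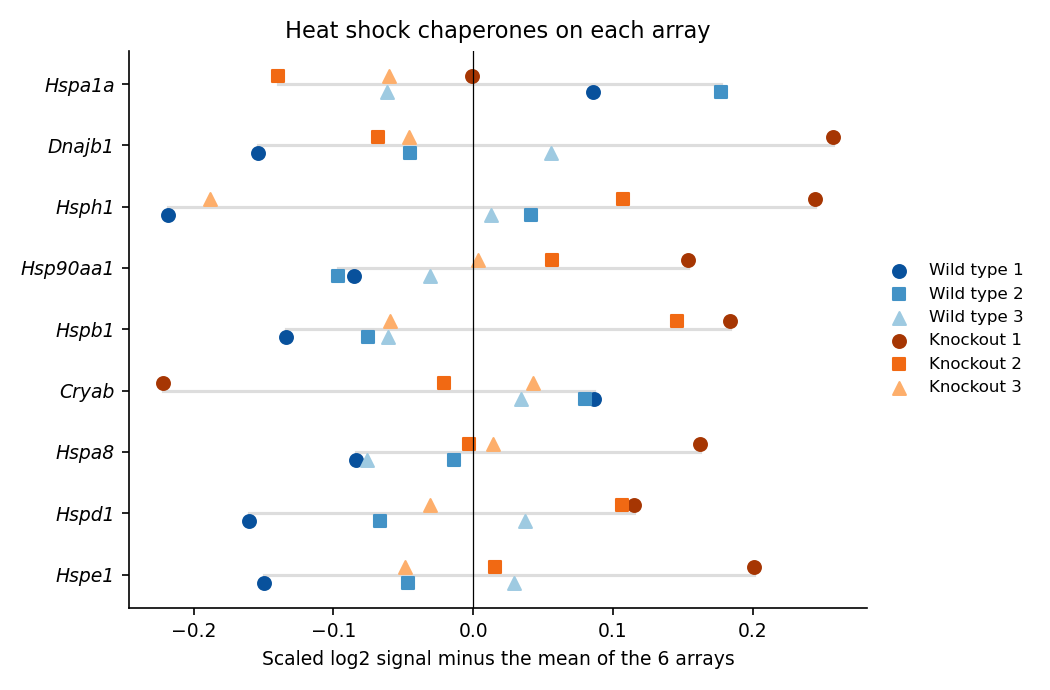
Scaled log2 signal of each chaperone on each of the 6 arrays, minus its mean over the arrays (horizontal axis), with wild-type pools in blue below and knockout pools in orange above each line. Knockout array 1 is the highest point for 7 genes and the lowest for Cryab.

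Inducible HSP70 was represented by Hspa1a, which is low in unstressed cells of many tissues and is induced by heat or protein damage. Its raw signal was 516, 540 and 459 in the wild-type pools and 438, 405 and 400 in the knockout pools, at percentiles 71.0 to 73.1 of the arrays. All 3 raw knockout signals lay below all 3 raw wild-type signals, but after scaling wild-type array 3 (−0.54) lay below knockout array 1 (−0.48) and beside knockout array 3 (−0.54). The scaled level was −0.41 ± 0.12 (SD, n = 3) in the wild-type group, against −0.54 ± 0.07 (SD, n = 3) in the knockout group. The change was −0.13 ± 0.09 (SE), with a 95% interval of 0.785-fold to 1.06-fold (limma adjusted p = 0.866). Leaving out wild-type array 2 gave −0.08. Hspa1a was the only chaperone of the 9 whose highest value was on wild-type array 2.

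Dnajb1 encodes the main inducible J-domain partner of HSP70, and Hsph1 the HSP110 nucleotide exchange factor. Dnajb1 gave raw signals of 16496, 17485 and 18813 in the wild-type pools and 19774, 16061 and 15266 in the knockout pools. Scaled, knockout array 1 was the highest at 5.02 and wild-type array 1 the lowest at 4.61, and the other knockout pools (4.69 and 4.72) lay within the wild-type range. The change was 0.10 ± 0.12 (SE), with an interval of 0.879-fold to 1.30-fold. Its sign rested on knockout array 1, without which the change was −0.01, and it was 0.04 without wild-type array 1, 0.15 without wild-type array 3 and 0.15 without knockout array 2. Hsph1 gave 11677, 13741 and 13516 in the wild-type pools and 14503, 13418 and 10235 in the knockout pools by its brighter probe. After scaling the extremes were again the knockout pools array 1 (4.57) and wild-type array 1 (4.11), with knockout array 3 (4.14) beside the latter, so that the groups overlapped. The change was 0.11 ± 0.14 (SE) by this probe and 0.12 ± 0.15 (SE) by the dimmer probe. The Hsph1 change was 0.01 without knockout array 1, 0.03 without wild-type array 1 and 0.23 without knockout array 3, and the spread between pools of a group, 0.19 as a pooled SD, was the widest of the 9 chaperones.

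Hsp90aa1 encodes the stress-responsive cytosolic HSP90. Its raw signals were 29324, 28594 and 30023 in the wild-type pools and 31174, 29665 and 26760 in the knockout pools. Scaled, the wild-type pools lay at 5.44, 5.43 and 5.49 and the knockout pools at 5.68, 5.58 and 5.53, so that the groups did not overlap, although the gap between wild-type array 3 and knockout array 3 was small. The change was 0.14 ± 0.07 (SE), 1.10-fold with an interval of 0.979-fold to 1.24-fold (limma unadjusted p = 0.0896, adjusted p = 0.866), and it was 0.09 with cyclic loess. Its pool SD of 0.06 was the smallest of the 9.

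The estimates for the small heat shock proteins lay on opposite sides of 0. Hspb1, which encodes HSP25 (HSP27 in human), a chaperone that protects actin, gave raw signals of 21078, 21571 and 21860 in the wild-type pools and 23669, 23459 and 19044 in the knockout pools. The scaled values were 4.96, 5.02 and 5.03 in the wild-type pools and 5.28, 5.24 and 5.03 in the knockout pools, so knockout array 3 lay beside the top of the wild-type range, above it only in the third decimal. The change was 0.18 ± 0.09 (SE), 1.13-fold with an interval of 0.978-fold to 1.31-fold, and it had the lowest unadjusted p of the members (limma unadjusted p = 0.0837, adjusted p = 0.866).

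Cryab encodes alphaB-crystallin, abundant in lens, muscle and glia. It gave 56023, 54808 and 53277 in the wild-type pools and 40767, 47706 and 46656 in the knockout pools by its brighter probe. The dimmer probe gave 13495, 12468 and 11533 in the wild-type pools and 7442, 9430 and 10719 in the knockout pools. By both probes knockout array 1 was the lowest and knockout array 3 reached into the wild-type range after scaling (6.33 against a wild-type low of 6.32 for the brighter probe, and 4.21 against 4.11 for the dimmer). The change was −0.13 ± 0.09 (SE) by the brighter probe and −0.31 ± 0.16 (SE) by the dimmer, with unadjusted p-values of 0.183 and 0.105 by limma. Without knockout array 1 the change by the brighter probe was −0.06. The pattern of Cryab on knockout array 1 was the reverse of that of Hspb1.

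Both small heat shock proteins are abundant in skeletal muscle, and the signal of muscle markers differed between pools. Of 15 muscle markers, 12 passed the filter (Myh1, Myh2 and Mylpf had no passing probe), with summed raw signals of 56360, 42153 and 44180 in the wild-type pools and 44928, 68322 and 46638 in the knockout pools. Knockout array 2 had the highest sum and wild-type array 1 the next. The mean centred scaled signal of the 12 was 0.61 and −0.43 on wild-type arrays 1 and 2, the lowest of all on wild-type array 3, and −0.92, 2.35 and −0.61 in the knockout pools. All 12 had a change above 0, with a median of 0.35, but 0 of them had groups that did not overlap and 0 passed the limma adjusted threshold or an unadjusted p of 0.05. The knockout mean of this signal was 0.55 above the wild-type mean, and without knockout array 2 the difference was −0.49, the opposite sign. On knockout array 2 the centred signal was 0.15 for Hspb1 and −0.02 for Cryab, whereas on wild-type array 1 it was −0.13 and 0.09. The part of muscle in these signals was not tested.

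Hspa8 encodes HSC70, the HSP70 of unstressed cells, which also strips clathrin from vesicles. Its brightest probe gave raw signals of 88849, 91643 and 88091 in the wild-type pools and 94939, 86183 and 81624 in the knockout pools. Scaled, the wild-type pools lay at 7.04, 7.11 and 7.04 and the knockout pools at 7.28, 7.12 and 7.13, without overlap. The change by this probe was 0.12 ± 0.07 (SE), an interval of 0.955-fold to 1.23-fold. It was 0.02 with quantile normalization, 0.04 with cyclic loess and 0.06 without knockout array 1. The second probe gave a change of 0.14 ± 0.11 (SE), but the third, with raw signals of 24981, 25356 and 22492 in the wild-type pools and 21483, 19448 and 19567 in the knockout pools, gave −0.12 ± 0.08 (SE). The probes of Hspa8 thus disagreed in sign, and none passed the threshold.

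Hspd1 (HSP60) and Hspe1 (HSP10), the mitochondrial chaperonin pair with the shared element shown above, had the same lowest and highest arrays. By their brightest probes, Hspa8, Hspb1, Hsph1 and Dnajb1 had these same extremes, so they were not particular to the pair. Hspd1 gave 10454, 10960 and 11820 in the wild-type pools and 11396, 11532 and 9813 in the knockout pools. Hspe1 gave 6936, 7323 and 7742 in the wild-type pools and 7967, 7132 and 6385 in the knockout pools by its brightest probe. For both genes wild-type array 1 was lowest and knockout array 1 highest after scaling, and knockout array 3 lay below wild-type array 3. The changes were 0.13 ± 0.08 (SE) for Hspd1 and 0.11 ± 0.09 (SE) for Hspe1 (limma adjusted p = 0.866 and 0.877). The dimmer Hspe1 probe gave 0.06 ± 0.08 (SE), with a limma adjusted p of 0.901 in a fit of every probe as a feature. Leaving out wild-type array 1 gave 0.08 for Hspd1 and 0.06 for Hspe1, and without knockout array 1 that of Hspe1 was 0.04.

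**Figure D2:**
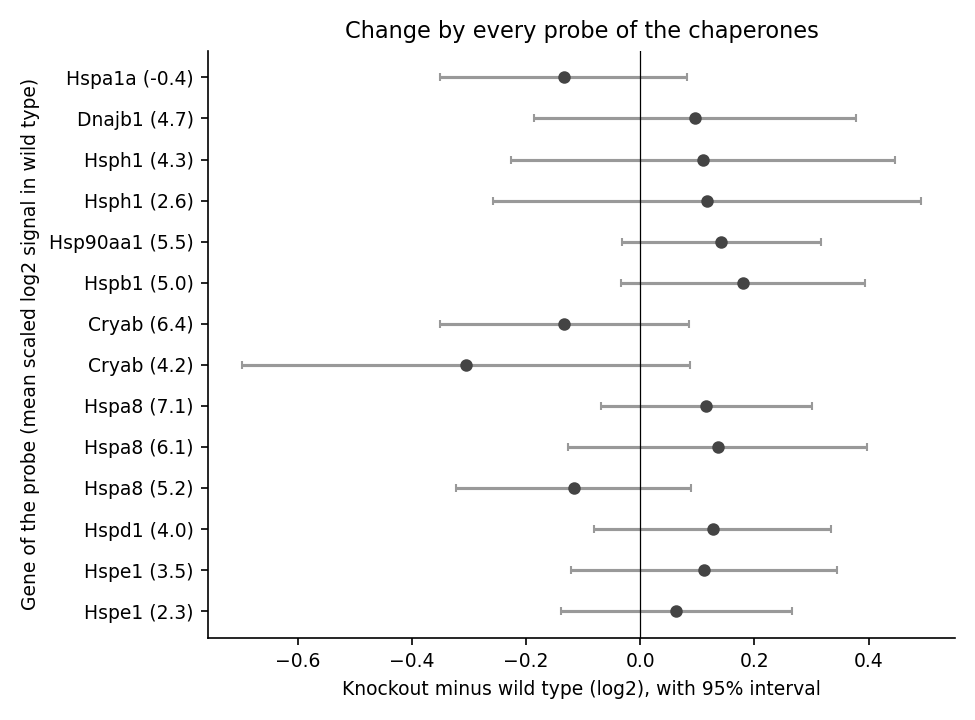
Knockout minus wild type on the log2 scale (horizontal axis) with the 95% interval of the limma fit of every probe as a feature, for each of the 14 chaperone probes past the filter, named by gene with the mean scaled log2 signal in wild type in brackets. Every interval includes 0, 10 probes lie above 0, and the third Hspa8 probe lies on the other side of 0 from the other probes of that gene.

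After scaling, the groups did not overlap for 3 of the 9 chaperones, Hspb1, Hsp90aa1 and Hspa8, all with knockout higher. Non-overlap was found in 12.4% of all features in either direction (8.08% with knockout higher) and in 16.7% of the 4054 features above a level of 3. With quantile normalization only Hsp90aa1 of these 9 did not overlap, and with cyclic loess, added after the data were seen, Hsp90aa1 and Cryab.

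Most members shared the arrays of their extremes. Knockout array 1 was the highest of the 6 for 7 of the 9 chaperones, and wild-type array 1 the lowest for 6. Knockout array 1 was also the highest for 27.0% of all features, 32.2% of those above a level of 3 and 50.8% of the 598 features above a level of 6. Wild-type array 1 was the lowest for 24.4% of all features and 34.5% of those above a level of 3. The mean centred signal of the 9 chaperones was −0.09, −0.01 and −0.01 in the wild-type pools and 0.12, 0.02 and −0.04 in the knockout pools. Without knockout array 1 the median change of the 9 was 0.04, beside 0.02 over all features, and without wild-type array 1 it was 0.06. With cyclic loess, which removes differences that follow signal level, the centred signals were −0.06, 0.03 and −0.00 in the wild-type pools. In the knockout pools they were 0.09, −0.01 and −0.05. The median change was then 0.07 against 0.01 over all features. With this scaling knockout array 1 was the highest for 7 of 9 and wild-type array 1 the lowest for 4. The shares of all features with these extremes were not computed for this scaling.

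The median change of all features also differed with their signal level. It was 0.05 below a level of −4, 0.04 from −4 to −2, 0.02 from −2 to 0 and again from 0 to 2, and 0.03 from 2 to 3. Above 3 it was 0.04, 0.05 and 0.06 in steps of 1 level up to 6, and 0.09 above 6, where 90.1% of features lay above 0. Hspa8, in the top level range, was above the median of that range, with 74.4% of its 598 features below it. Hspb1 and Hsp90aa1 had 96.7% and 91.4% of the 627 features at levels from 5 to 6 below them. Cryab stood at the other end, with 12 of the 598 features above a level of 6 at a lower change than its own. Hspa1a had 14.8% of the features of its level range below it. These shares describe the order of the estimates and carry no test.

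**Figure D3:**
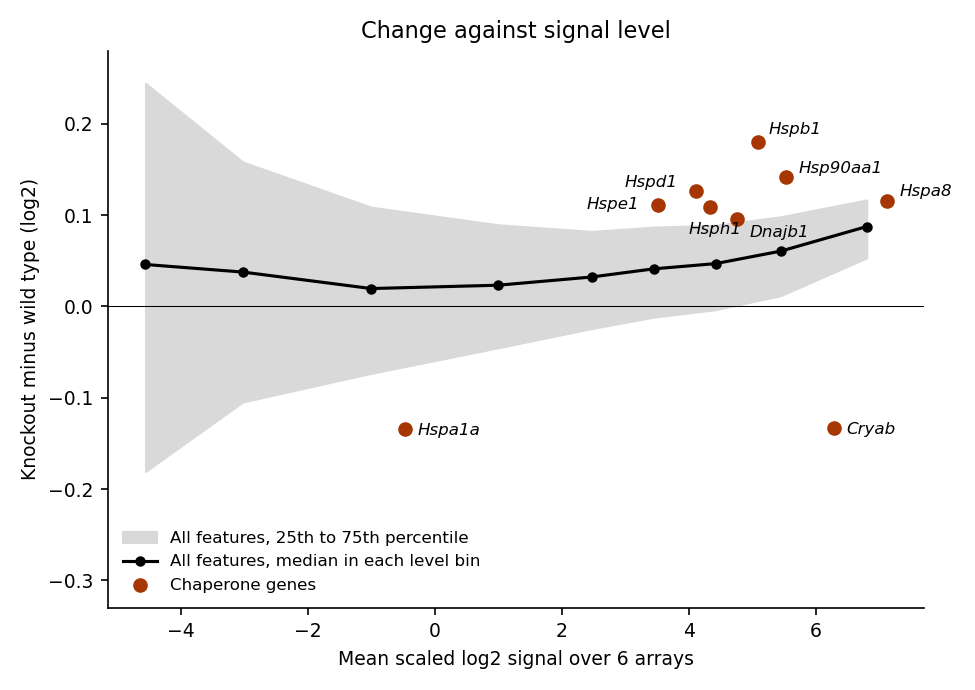
Knockout minus wild type (vertical axis, log2) against the mean scaled log2 signal over the 6 arrays (horizontal axis). The line joins the medians of all features in 9 level ranges, the grey band spans their 25th to 75th percentiles, and points are the 9 chaperones, of which Cryab lies far below the features of its level and Hspb1 above.

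Inducible and constitutive members were compared across the pools by the mean centred signal of Hspa1a, Dnajb1, Hsph1 and Hsp90aa1 against that of Hspa8, Hspd1 and Hspe1. The inducible score was −0.09, 0.02 and −0.01 in the wild-type pools and 0.16, −0.01 and −0.07 in the knockout pools. The constitutive score was −0.13, −0.04 and −0.00 in the wild-type pools and 0.16, 0.04 and −0.02 in the knockout pools. Both classes thus had their lowest value on wild-type array 1 and their highest on knockout array 1. The inducible minus the constitutive score was 0.04, 0.06 and −0.00 in the wild-type pools and 0.00, −0.05 and −0.05 in the knockout pools, a mean difference of −0.06 between the groups, with wild-type array 3 below knockout array 1.

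The difference depended on the genes and probes counted. With Hspa1a left out, the inducible score was −0.15, −0.03 and 0.01 in the wild-type pools and 0.22, 0.03 and −0.08 in the knockout pools, and its change was 0.12, as was that of the constitutive members. With all 4 inducible genes kept, the difference between the classes was −0.03 for the mean of a gene's probes and −0.01 when every probe was counted. Pools of a group varied by a median SD of 0.12 over the inducible members and 0.09 over the constitutive members, beside 0.14 over all features and 0.08 over the features above a level of 3. Inducible Dnajb1 (0.15) and Hsph1 (0.19) varied most, and inducible Hsp90aa1 (0.06) and constitutive Hspa8 (0.07) least.

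**Figure D4:**
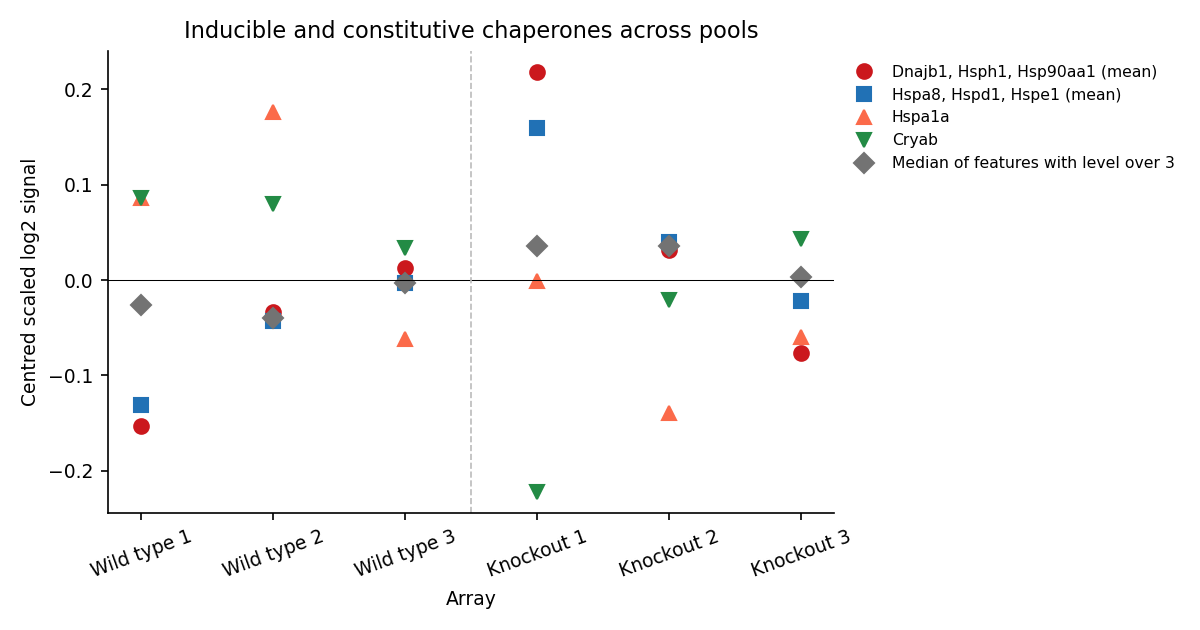
Centred scaled log2 signal (vertical axis) on each array (horizontal axis) for the mean of Dnajb1, Hsph1 and Hsp90aa1, the mean of Hspa8, Hspd1 and Hspe1, Hspa1a, Cryab, and the median of all features with a level over 3. The means of both classes are at their highest on knockout array 1, at 0.22 and 0.16, where Cryab is at −0.22.

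The wider chaperone network was read from 55 further genes, of which 50 passed the filter. Hsf1, Hsp90ab1, Hspa1l, Hspa12a and Hspb7 did not have a passing probe here. Genes without an annotated probe and genes below the filter were not told apart, here or in the marker lists. Of the 50 genes, 0 passed the adjusted threshold (against 0% of features), 0 reached an unadjusted p under 0.05 by limma, 34 lay above 0 and 16 below, and the median change was 0.04. The groups did not overlap for 4 of them, beside 12.4% of features.

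Among co-chaperones above 0 was the J-domain protein Dnaja4, with raw signals of 7565, 7259 and 7515 in the wild-type pools and 7461, 7405 and 7039 in the knockout pools, and a change of 0.12 ± 0.06 (SE). Its second probe gave 0.05 ± 0.09 (SE). Hspbp1, a nucleotide exchange factor of HSP70, was at 0.11 ± 0.06 (SE), Dnajb5, a J-domain protein, at 0.13 ± 0.08 (SE), and Cdc37, which brings kinases to HSP90, at 0.09 ± 0.06 (SE). Cdc37 was at 0.05 with quantile normalization and 0.03 with cyclic loess, and Dnajb5 at 0.08 without wild-type array 3. In Dnaja4, Hspbp1 and Cdc37 the scaled groups did not overlap, and in Dnajb5 they did.

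Below 0 was Dnajc7, a J-domain protein that joins HSP70 and HSP90, with raw signals of 13605, 14802 and 14746 in the wild-type pools and 7504, 10013 and 13496 in the knockout pools. Its change was −0.37 ± 0.23 (SE), and after scaling knockout array 1 was the lowest of the 6 and knockout array 3 the highest. Without knockout array 1 it was −0.15, and without knockout array 3 −0.61. Knockout array 1 was likewise the low array for both Cryab probes. Hspb8, a small heat shock protein of the BAG3 complex, was at −0.14 ± 0.09 (SE), the HSP90 immunophilin Fkbp4 at −0.08 ± 0.07 (SE), and the CCT chaperonin subunit Cct3 at −0.08 ± 0.08 (SE). Single arrays moved each of these values. Hspb8 was at −0.08 without wild-type array 2 and −0.21 without wild-type array 3, Fkbp4 at −0.03 without wild-type array 2, and Cct3 at −0.13 and −0.04 without knockout arrays 1 and 2. None of these 8 genes had a limma adjusted p under 0.866. Hsf2, a heat shock factor, was at 0.08 ± 0.07 (SE), and at 0.05 without wild-type array 3.

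By family, the CCT chaperonin had 5 of 8 members above 0 with a median of 0.03, HSP70 and HSP110 proteins 5 of 8 with 0.02, J-domain proteins 9 of 11 with 0.04, and HSP90 and its partners 6 of 8 with 0.07. The HSP70 cofactors, counted with the collagen chaperone Serpinh1, had 6 of 6 above 0 with a median of 0.07, and further small heat shock proteins had 1 of 5 above 0 with −0.03. That last median is the change of Cryaa, a dim gene with raw signals of 15.3 to 28.1. The 40th percentiles of the arrays were 17.2 to 23.7. The median over all features was 0.03. For several J-domain genes, chosen after their values were seen, probes disagreed. Dnaja1 was at 0.00 by its brighter probe and 0.25 ± 0.07 (SE) by the other (limma unadjusted p = 0.0115, adjusted p = 0.759), and Dnajb2 was at −0.00 and −0.40 ± 0.18 (SE). Dnajb6 was at 0.06 by its brightest probe and at −0.02, −0.07 and −0.28 by the others, the last with a limma unadjusted p of 0.0227 and an adjusted p of 0.822.

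**Figure D5:**
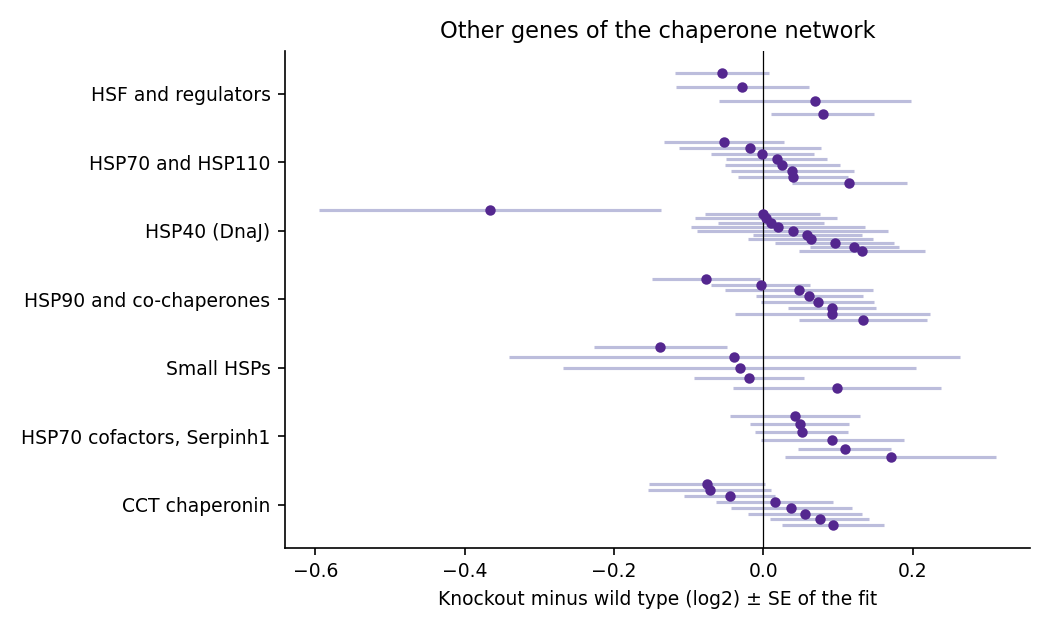
Knockout minus wild type on the log2 scale (horizontal axis), with the SE of the fit, for the 50 further chaperone and co-chaperone genes past the filter, in 7 families. Points gather around 0 between −0.14 and 0.17, and Dnajc7, at −0.37, lies apart with the widest error of the J-domain proteins.

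Cirbp and Rbm3, RNA-binding proteins that rise when body temperature falls, were examined because the heat shock response moves with temperature in the other direction. Rbm3 gave raw signals of 7742, 8127 and 7829 in the wild-type pools and 7971, 9161 and 8896 in the knockout pools. After scaling all 3 knockout pools lay above all 3 wild-type pools, with a change of 0.28 ± 0.08 (SE), which did not pass (limma unadjusted p = 0.0152, adjusted p = 0.773). Its other probes gave 0.22 ± 0.13 (SE) and 0.19 ± 0.25 (SE). Cirbp was at 0.32 ± 0.26 (SE), with overlapping groups, and at 0.95 ± 0.58 (SE) by its other probe. Without knockout array 1 it was at 0.58, without knockout array 3 at 0.16 and without wild-type array 2 at 0.20. The mean centred signal of the pair was −0.02, −0.25 and −0.18 in the wild-type pools and −0.17, 0.26 and 0.36 in the knockout pools. The pair was thus lowest on wild-type array 2 and highest on knockout array 3. The mean of the 9 chaperones was lowest on wild-type array 1 and highest on knockout array 1.

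Immediate early genes, which respond to handling and activity, were read beside the chaperones. Of 15 listed, 12 passed, with a mean centred signal of 0.02, 0.15 and 0.01 in the wild-type pools and −0.20, −0.07 and 0.08 in the knockout pools. Their lowest score was on knockout array 1, where 7 of the 9 chaperones were highest. The summed raw signal of these genes, not comparable between the groups before scaling, was 16647 to 18122 in the wild-type pools and 13952 to 16393 in the knockout pools. Scaled, 3 of the 12 had a change above 0 and 9 below, with a median of −0.06. By limma, 1 had an unadjusted p under 0.05 (beside 5.7% of features) and 0 passed the adjusted threshold. The groups did not overlap for 1, beside 12.4% of features. The difference in mean centred signal was −0.12, with −0.05 without knockout array 1 and −0.19 without knockout array 3. The part of handling, of the temperature of the animals or of array 1 in the chaperone values was not tested.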

How the data were processed

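RNA of 6 cochlear pools was measured on 1-colour Agilent arrays. Per the submitters' processing notes, Agilent Feature Extraction 10.7 was used. What the authors deposited was an unscaled linear intensity for every probe of an array, and a matrix of log2 values. Each deposited log2 column is the log2 raw signal of its array minus a constant near its 75th percentile. The exported signal column and its background treatment are not given in the sources used here.

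Of 55676 probes, 30625 had 1 gene in the platform annotation and 25051 none. Symbols were updated through gene IDs (30331 in RefSeq). The brightest passing probe stood for a gene. The comparison used lmFit and eBayes of limma 3.58.1 (R 4.3.3) without covariates, with Benjamini-Hochberg adjustment over 27189 features and a threshold of 0.05. SEs and p-values of a gene's further probes came from a second fit of every passing probe as a feature, adjusted over 33484. Scores are means of log2 signals centred per gene. The members and lists were chosen with earlier results of these data known, so class scores and lists carry no test. Further genes named were Hsf2, Cirbp, Rbm3 and the 4 wider genes in each direction with the lowest unadjusted p. Genes with a profile like that of the inducible members were to be named only if the profile varied more than the 75th percentile of features, which it did not. Other marker lists (glia, neurons, macrophages, neutrophils, red cells, bone) stand in the closing section. Normexp and slide blocks were not run, since the files hold 1 signal per probe. Alternatives covered scaling, filter, probes, spread, replicate block and left-out arrays.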

Additional observations from a re-analysis of the deposited data

How the results depend on the processing

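Under 19 alternatives, 169 of 171 chaperone changes kept their direction and none of the 171 passed the adjusted threshold. The exceptions in direction were Dnajb1 with array weights (−0.0261) and without knockout array 1 (−0.00872), and over the left-out arrays its change ran from −0.00872 to 0.154. Fits that altered only the filter, the floor, the set of features, the trended robust spread or the replicate block left each chaperone estimate unchanged. Those fits could not turn a sign. The count also followed the main probe of a gene wherever it was kept, so the third Hspa8 probe (−0.12) did not enter it singly. The count of called members, and of called genes of the wider list, stayed at 0 throughout. At an unadjusted p under 0.05, the trended robust fit gave Hspb1 and Hsp90aa1, and array weights and the fit without knockout array 3 gave Hspb1. Over all features the same fits gave 1561 of 27189, 3427 of 27189 and 2103 of 26850, in that order. The median change of the members ran from 0.0391 to 0.164 over the left-out arrays, with 0.0391 without knockout array 1. The inducible minus constitutive difference ran from −0.0832 to −0.0501 over the left-out arrays, with −0.0320 for the mean of a gene's probes and −0.00662 for every probe as a feature; the cause was not tested. Fabp7 had knockout signals below the 40th percentile of each knockout array, so its changes are not exact sizes, and the value with a floor is a bound. At an adjusted p of 0.0610 over all features by limma, it passed with quantile normalization (−8.43), the floor at the 40th percentile (−6.57), named genes only (−8.42), the trended robust fit (−8.42), array weights (−8.64) and without knockout array 1 (−8.95). Samples with the same replicate number did not deviate together (correlations −0.13, −0.04 and −0.14). These correlations cannot show how the pools were handled, so whether the numbers pair them is not known. With the replicate number as a block the count of called members was 0, the median change 0.11, and features at an unadjusted p under 0.05 numbered 1199 against 1550. The number of arrays limits the precision.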

Other observations

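Marker lists of other cell types are given as values, with scores that are means of centred log2 signals. None of their members passed the adjusted threshold by limma. At an unadjusted p under 0.05 by limma there were 2 of 9 macrophage and 1 of 5 glial genes, beside 5.7% of all features. All 9 macrophage genes were below 0 (median change −0.11), and in 3 of them the groups did not overlap, beside 12.4% of all features. The macrophage scores of the wild-type pools were −0.09, 0.20 and 0.10, and those of the knockout pools −0.02, −0.05 and −0.15. The difference of their means was −0.14, against −0.08 without wild-type array 2 and −0.23 without wild-type array 1. All 8 neutrophil genes were above 0 (median change 0.13), with scores of −0.34, 0.27 and −0.11 in the wild-type pools and 0.19, 0.01 and −0.01 in the knockout pools. The difference of 0.12 turned to −0.02 without wild-type array 1, and was 0.06 without knockout array 1 and 0.29 without wild-type array 2. Of 8 bone genes 7 were below 0 (median change −0.11), with scores of −0.13, 0.32 and 0.02 in the wild-type pools and −0.08, −0.06 and −0.08 in the knockout pools. The difference of −0.14 was −0.02 without wild-type array 2 and −0.24 without wild-type array 1. Glial genes had 2 members above 0 and 3 below (median change −0.04), neuronal genes 4 and 4 (0.03) and red cell genes 3 and 2 (0.07), and in all 3 lists the sign of the score difference turned without wild-type array 1 or another single array. On knockout array 1, where 7 of the 9 chaperones were highest, these 3 lists scored −0.10, −0.02 and −0.03. On wild-type array 1, where 6 were lowest, they scored 0.22, 0.38 and −0.36. The part of these cells in the chaperone values was not tested.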
